A study of Homo sapiens with 4 samples.

Results

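Metallothioneins and zinc transporters were followed as 10 genes in 4 single-cell RNA-seq libraries of the LNCaP prostate cancer cell line. The 10 are the metallothioneins MT2A, MT1X, MT1E, MT1F, MT1G and MT1M, the zinc exporters SLC30A1 and SLC30A4, and the zinc importers SLC39A1 and SLC39A6. They were chosen by symbol among the 33538 genes counted, and all 10 were found. LNCaP is an androgen-responsive line derived from a lymph node metastasis of a prostate carcinoma. The parental line was given 0.1% DMSO for 48 h (LNCaP) or 10 µM enzalutamide, an antiandrogen, for 48 h (LNCaP-ENZ48). RES-A and RES-B are enzalutamide-resistant lines derived from LNCaP by long exposure to antiandrogens and kept in 10 µM enzalutamide, each a single derived line. The comparisons ask how these genes stand after acute drug exposure and in each resistant line. All cells were sorted as living cells before capture. Each condition is 1 library, so no difference between conditions could be tested against replicates, and library and condition cannot be told apart.

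Metallothioneins are small, cysteine-rich proteins that bind zinc and copper and buffer the free metal in the cell. Zinc enters the cytosol through ZIP transporters (SLC39 genes) and leaves it through ZnT transporters (SLC30 genes), and the zinc-sensing transcription factor MTF1 activates metallothionein genes and SLC30A1 through short metal response elements in their promoters. The normal prostate epithelium accumulates unusually large amounts of zinc, and prostate cancer cells are known to hold less of it.

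Sets of 4 values below follow the library order parental DMSO, parental enzalutamide, RES-A, RES-B. The libraries held 1782, 4315, 4569 and 4061 cells after filtering, with 50208831 to 60838227 unique molecular identifiers (UMIs, 1 per captured transcript) in each. LNCaP was sequenced more deeply per cell, with a median of 27080 UMIs against 12138 to 13676 in the others. Pairs of libraries shared 2 to 9 cell barcodes. The 5 luminal prostate markers HOXB13, KRT8, KRT18, KLK3 and TMPRSS2 summed to 898 to 1574 CPM. KLK3 ran from 718 CPM in LNCaP to 2 UMIs in RES-A, under the limit of 3 UMIs used here, and TMPRSS2 from 106 to 7.50 CPM in the same libraries. The summed levels of the basal, fibroblast, endothelial and leukocyte markers stayed at or below 3.33 CPM. Levels are given as UMIs per 1000000 UMIs of the library (CPM). Because the assay tags transcript 3' ends, a CPM counts molecules and is not divided by gene length, and levels are compared below between libraries for 1 gene at a time. Brackets hold exact 95% intervals. These intervals and the limits for counts of 0 cover counting error only and not the variation between cells or cultures.

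All 6 metallothionein members lie in 1 cluster on chromosome 16 (GRCh38), where 11 metallothionein genes span 119 kb from 56565073 to 56684196. MT2A (ENSG00000125148) occupies chr16:56608584-56609497 on the plus strand and MT1X (ENSG00000187193) occupies chr16:56682470-56684196 on the plus strand, near the far end of the cluster. Between them lie MT1E (from 56625475), MT1M (from 56632659), MT1F (from 56657731) and MT1G (56666730 to 56668065), of which MT1G alone is on the minus strand. SLC39A1 (chr1:153959099-153968184) and SLC30A1 (chr1:211571568-211579161) lie on chromosome 1, SLC30A4 (chr15:45479606-45522755) on chromosome 15 and SLC39A6 (chr18:36108531-36129385) on chromosome 18, all on the minus strand.

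The sequences before the start sites of MT2A, MT1X and SLC30A1 are shown because these are known MTF1 targets, and the metallothioneins differed from LNCaP in the opposite direction to SLC30A1 in RES-A. RefSeq promoters (GRCh38.p14) were found for 6 of the 10 members and not for MT1E, MT1F, MT1G and MT1M. Each line gives the 250 bases before the start, 5' to 3' on the gene's strand, from chr16:56608334-56608583 (MT2A, plus), chr16:56682220-56682469 (MT1X, plus) and chr1:211579162-211579411 (SLC30A1, minus). Capitals mark matches to the metal response element core, TGCACNC or TGCGCNC, searched on both strands.
MT2A: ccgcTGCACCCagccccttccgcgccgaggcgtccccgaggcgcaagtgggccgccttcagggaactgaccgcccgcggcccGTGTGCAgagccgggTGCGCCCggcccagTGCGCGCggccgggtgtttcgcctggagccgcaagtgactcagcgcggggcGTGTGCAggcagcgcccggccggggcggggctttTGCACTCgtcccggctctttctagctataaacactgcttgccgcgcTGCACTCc
MT1X: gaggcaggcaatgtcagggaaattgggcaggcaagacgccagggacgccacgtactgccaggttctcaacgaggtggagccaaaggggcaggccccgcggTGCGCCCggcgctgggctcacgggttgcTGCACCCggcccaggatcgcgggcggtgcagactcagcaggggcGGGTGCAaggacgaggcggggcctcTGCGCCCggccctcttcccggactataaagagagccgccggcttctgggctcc
SLC30A1: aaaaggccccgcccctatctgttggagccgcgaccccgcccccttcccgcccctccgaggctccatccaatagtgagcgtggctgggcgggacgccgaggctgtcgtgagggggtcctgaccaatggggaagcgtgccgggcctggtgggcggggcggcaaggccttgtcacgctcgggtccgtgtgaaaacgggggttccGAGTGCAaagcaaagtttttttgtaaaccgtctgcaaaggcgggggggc
MT2A held 7 matches and MT1X held 4, none overlapping another. SLC30A1, SLC30A4 and SLC39A6 held 1 match each, and of the 2 annotated starts of SLC39A1 one held 1 match and the other none. Of 35116 promoter windows of the same length, 24.8% held at least 1 match, 0.370% held at least 4 and 0.0313% held at least 7. A single match, as in the transporters, was thus common among promoters, and a match describes the letters only, not binding.

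MT2A, the most widely expressed human metallothionein, reached 1269 CPM [1259, 1279] in LNCaP and 1011 [1003, 1019] after acute drug, against 296 [292, 301] in RES-A and 1932 [1920, 1944] for RES-B. The resistant lines therefore stood at opposite ends, with RES-A below and RES-B above both parental libraries. MT1X, which encodes a close relative of the same metal-binding function, followed the same order at 400.2, 272, 71.7 and 530.0 CPM in library order. MT1F had a different parental order, at 12.8 CPM in LNCaP and 17.4 in LNCaP-ENZ48, and lay below both in RES-A, at 6.26, and above both in RES-B, at 61.5.

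MT1G broke with the other metallothioneins in RES-B. It stood at 53.5 CPM [51.5, 55.6] in LNCaP and 73.7 [71.6, 75.9] in LNCaP-ENZ48, against 4.39 [3.87, 4.97] in RES-A and 0.304 [0.174, 0.494] in RES-B. In counts, the parental libraries held 2688 and 4486 MT1G UMIs, RES-A held 252 and RES-B held 16, spread over 16 cells with 1 UMI each. RES-B thus had the highest MT2A, MT1X and MT1F of the 4 libraries and the lowest MT1G, although MT1G lies between MT1F and MT1X in the cluster.

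MT1E had no UMI in any of the 4 libraries, which allows a level of at most 0.0493 to 0.0598 CPM (3 UMIs) in each. MT1M had 1 UMI, in LNCaP, and none elsewhere. With 0 of 1782 to 0 of 4569 cells carrying an MT1E UMI, the share of cells with one could be up to 0.168% in LNCaP and 0.0657% in RES-A. These 2 genes are neighbours that lie between the detected MT2A and MT1F. Of the 12 metallothionein genes in the matrices, 4 had no UMI in any library. Among those that are not members, MT3, best known from brain, was detected in all libraries but stayed between 0.419 CPM in RES-A and 2.93 CPM in LNCaP-ENZ48.

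Metallothionein genes share sequence, and reads that fit several genes equally well may be lost or misplaced in counting. Among the 251 windows of 50 bases in the last 300 bases of each transcript, 15.5% of the MT2A windows, 30.7% of MT1X, 28.7% of MT1G, 9.16% of MT1F, 17.5% of MT1M and 1.99% of MT1E occurred in a transcript of another gene. The MT1E windows come from a transcript model of 2 exons and 746 bases, unlike the 3-exon models of MT1X, MT1F, MT1G and MT1M. How reads were assigned among these genes was not tested, and their values are uncertain to the extent that reads fell in shared stretches.

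**Figure D1:**
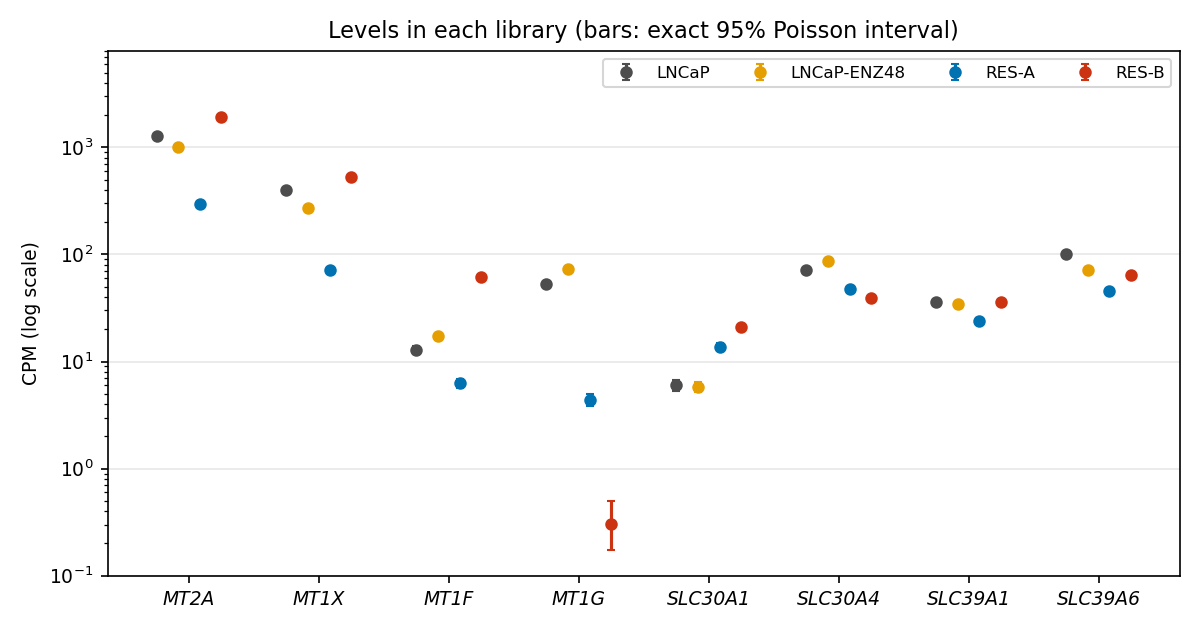
Level of the 8 members detected at 10 CPM or more in at least 1 library, as CPM on a log axis; each point is 1 library and bars are exact 95% Poisson intervals, often smaller than the point. RES-B (red) is the highest point for MT2A, MT1X and MT1F and the lowest, at 0.304 CPM, for MT1G.

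After 48 h of enzalutamide the metallothioneins differed little from LNCaP, and in different directions. Summed over the members, metallothionein UMIs stood at 1736 CPM in LNCaP and 1374 in LNCaP-ENZ48, a log2 ratio of -0.34 [-0.35, -0.32]. MT2A (-0.33 [-0.34, -0.31]) and MT1X (-0.56 [-0.59, -0.53]) were lower, while MT1F (0.44 [0.30, 0.58]) and MT1G (0.46 [0.39, 0.53]) were higher. None of the 7 members at 10 CPM or more in either library differed 2-fold, where 0.212% of all 7554 genes tested were higher by 2-fold and 0.728% were lower. The MT2A difference depended on the cell cycle: in cells called G1 its log2 ratio was 0.06 [0.04, 0.08], but it was -0.70 in cells called S and -0.82 in cells called G2/M, and the summed ratio in G1 cells was -0.06. MT1X was lower in each phase, by -0.50 in G1, -1.04 in S and -1.01 in G2/M cells. MT1G was higher in G1 (0.41) and S cells (0.51 [0.06, 0.97]) but lower in G2/M cells, at -1.10 [-1.43, -0.78], and MT1F stood at 0.45, 1.02 and -0.10 [-0.49, 0.29] in G1, S and G2/M cells.

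In RES-A the 4 detected metallothionein members were all lower than in LNCaP. The sum was 379 CPM, a log2 ratio of -2.20 [-2.22, -2.18] or 4.58-fold lower. By gene the log2 ratios were -2.10 [-2.12, -2.07] for MT2A, -2.48 [-2.53, -2.43] for MT1X, -1.04 [-1.23, -0.85] for MT1F and -3.61 [-3.80, -3.42] for MT1G. MT1G, 12.2-fold lower, showed the largest of these differences and MT1F the smallest. The MT1F ratio was the only one of these 4 to fall short of the 2-fold line under an alternative. It was -0.995 without the 5% of cells with most UMIs and -0.97 as a mean over cells. Within phases, the MT2A ratio was -2.10 in G1, -2.19 in S and -2.17 in G2/M cells, so the difference was of similar size in each. For MT1G the ratio was -3.84, -1.73 and -3.09 in these phases, and for MT1F it was -1.09, -0.23 [-0.92, 0.46] and -1.12.

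In RES-B the sum was 2524 CPM, a log2 ratio to LNCaP of 0.54 [0.53, 0.55], without reaching 2-fold. MT2A (0.61 [0.59, 0.62]) and MT1X (0.41 [0.38, 0.43]) were moderately higher, MT1F was 4.78-fold higher (2.26 [2.14, 2.38]), and MT1G was lower with a log2 ratio of -7.46 [-8.27, -6.76]. This ratio rests on few RES-B UMIs and was -8.43 in cells called G1, which held 7 of them, and -7.10 with 1 filter for all libraries. Compared directly with RES-A, RES-B had 6.52-fold more MT2A (2.71 [2.68, 2.73]), 7.39-fold more MT1X (2.89 [2.84, 2.93]) and 9.82-fold more MT1F (3.30 [3.14, 3.46]). MT1G was under 10 CPM in both resistant lines and was left out of that count, with a log2 ratio of -3.85 [-4.68, -3.12] that was -4.59 in cells called G1. The comparisons against LNCaP use the same LNCaP library and are not independent of one another.

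The zinc exporters differed in opposite directions. SLC30A1 (ZnT1), the exporter of the plasma membrane, stood at 5.98 CPM [5.32, 6.69] in LNCaP and 5.75 [5.17, 6.39] after acute drug, but at 13.8 [12.9, 14.8] in RES-A and 20.9 [19.7, 22.1] for RES-B. The parental libraries overlapped (log2 ratio -0.05 [-0.28, 0.17], which TMM scaling turned to 0.04), and both resistant lines stood above them, by 1.21 [1.01, 1.40] in RES-A and 1.80 [1.62, 1.99] in RES-B. SLC30A1 was therefore higher in RES-A, where the metallothionein sum was lowest, as well as in RES-B, where MT2A was highest. SLC30A4 (ZnT4), which loads zinc into intracellular vesicles, had the opposite order between parental and resistant libraries, at 71.0, 86.8, 48.0 and 39.5 CPM in library order. It was higher after 48 h of drug (log2 ratio 0.29 [0.23, 0.35]) and lower in RES-A (-0.56 [-0.64, -0.49]) and RES-B (-0.85 [-0.92, -0.77]), in each case by less than 2-fold. Within phases the RES-A ratio was -0.65 in G1 cells and -0.15 [-0.39, 0.10] in S cells but 0.44 [0.16, 0.72] in G2/M cells, so its direction turned in G2/M, whereas the RES-B ratio lay between -0.84 and -0.95 in the 3 phases.

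Both zinc importers among the members were lowest in RES-A, unlike some of the other importers described below. SLC39A6 (ZIP6, LIV-1), a plasma membrane importer first known as an estrogen-regulated gene, stood at 101, 71.5, 45.1 and 63.7 CPM in library order. All 3 enzalutamide-exposed libraries were thus below LNCaP, with log2 ratios of -0.50 [-0.56, -0.44], -1.16 [-1.23, -1.09] and -0.67 [-0.73, -0.60], respectively. Within phases the LNCaP-ENZ48 ratio was -0.60 in G1 and -0.73 in S cells but 0.05 [-0.09, 0.19] in G2/M cells. In both resistant lines SLC39A6 was lower than in LNCaP in each phase. SLC39A1 (ZIP1), regarded as the main zinc importer of prostate epithelium, stood at 36.1 CPM [34.5, 37.8] in LNCaP, 34.3 [32.9, 35.8] in LNCaP-ENZ48 and 36.2 [34.6, 37.9] in RES-B, 3 values whose intervals overlap. Only RES-A stood apart, at 24.0 CPM [22.8, 25.3] and a log2 ratio of -0.59 [-0.69, -0.49]. The small SLC39A1 ratios of LNCaP-ENZ48 (-0.07 [-0.16, 0.02]) and RES-B (0.00 [-0.09, 0.10]) changed sign with the scaling, to 0.02 and -0.10 under TMM.

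**Figure D2:**
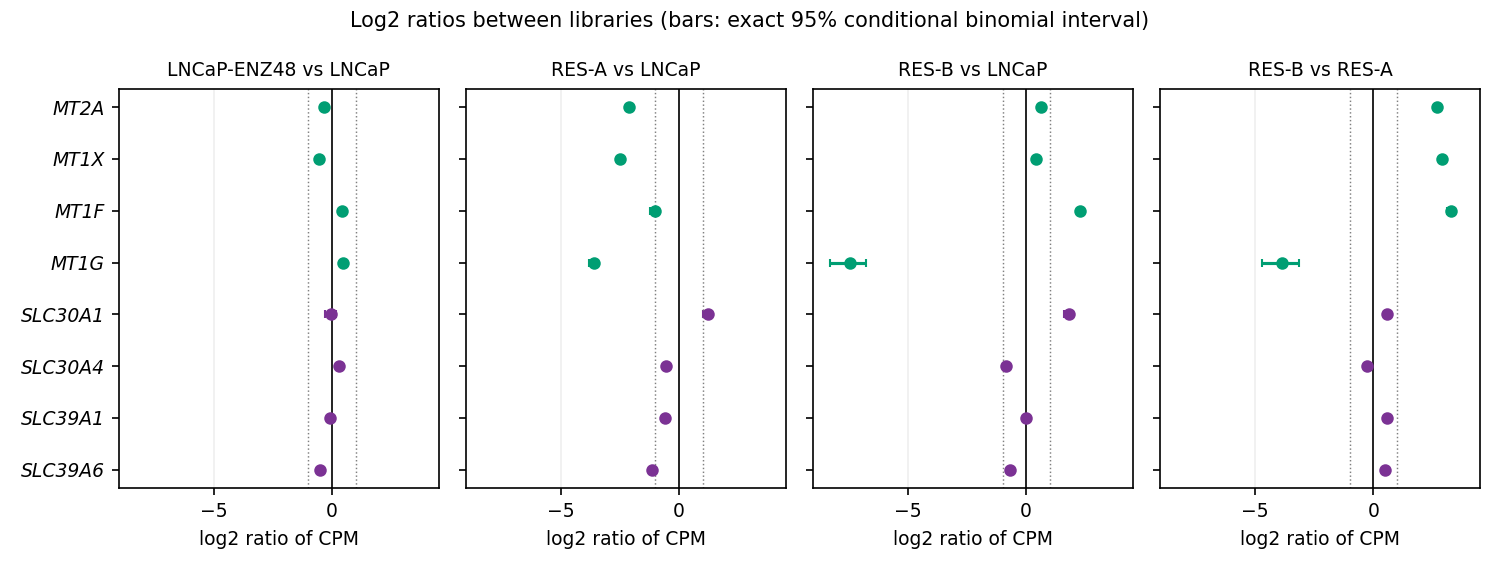
Log2 ratio of CPM for each member in the 4 comparisons, metallothioneins in green and transporters in purple; bars are exact 95% conditional binomial intervals and dotted lines mark 2-fold. In RES-A all 4 metallothioneins lie left of -1 and SLC30A1 lies right of 1 at 1.21, and in RES-B the MT1G point lies at -7.46.

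Counted against all genes, 1 of the 8 members at 10 CPM or more in RES-A or LNCaP was higher by 2-fold (SLC30A1) and 5 were lower (MT2A, MT1X, MT1F, MT1G and SLC39A6), where 4.8% of all genes were higher and 4.99% lower. Without the 5% of cells with most UMIs, or as a mean over cells, MT1F fell short and 4 were lower. In RES-B against LNCaP, 2 of 8 were higher (MT1F and SLC30A1) and 1 was lower (MT1G), beside 5.76% and 3.73% of all genes. In RES-B against RES-A, 3 of 7 were higher (MT2A, MT1X and MT1F) and none was lower, beside 3.95% and 2.3%. Several members passed the minimum of 10 CPM only through the library in which they were high. These were SLC30A1 in both comparisons of a resistant line with LNCaP, MT1F and MT1G in RES-A against LNCaP, MT1G in RES-B against LNCaP, and MT1F in RES-B against RES-A. The median log2 ratio of the members was -1.10 in RES-A and 0.20 in RES-B, beside 0.02 and 0.12 over all genes.

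Of the 20 ZnT and ZIP genes that are not members, 10 reached 10 CPM in the comparisons with LNCaP-ENZ48 or RES-A. None of these differed 2-fold from LNCaP. Over all genes, 0.212% were higher and 0.728% lower by 2-fold in LNCaP-ENZ48, and 4.8% and 4.99% in RES-A. A count of 0 among these 10 transporters is near those shares. Of 11 in the comparison of RES-B with LNCaP, SLC30A7 (ZnT7, an exporter into the Golgi) was higher at 27.6 against 12.1 CPM (log2 ratio 1.18 [1.05, 1.32]) and SLC39A10 (ZIP10, a plasma membrane importer related to SLC39A6) was lower at 16.4 against 47.2 CPM (-1.52 [-1.64, -1.41]). SLC39A10 was also lower in LNCaP-ENZ48 (35.4 CPM) and RES-A (32.7 CPM), so it shared with SLC39A6 the position below LNCaP in all 3 drug-exposed libraries. SLC39A7 (ZIP7), which releases zinc from the endoplasmic reticulum, was lower in RES-A at 35.3 CPM than in the other libraries at 59.3 to 71.8 CPM, and was the 1 of 11 that differed 2-fold between the resistant lines (1.02 [0.95, 1.10]). That difference fell to 0.97 under TMM and 0.96 under median-of-ratios scaling, both short of 2-fold. SLC39A10, at -0.99 between the resistant lines, passed 2-fold at -1.05 under each. Over all genes, 5.76% were higher and 3.73% lower in RES-B against LNCaP, and 3.95% and 2.3% in RES-B against RES-A. Counts this small among 11 genes do not set these transporters apart from all genes. SLC39A3 (ZIP3) and SLC39A4 (ZIP4), both plasma membrane importers, were instead highest in RES-A, at 93.6 and 109 CPM against 60.1 and 73.8 in LNCaP. Importers of the same membrane thus stood both above and below LNCaP in RES-A. Levels lay between 34.6 and 46.3 CPM for SLC30A5, between 40.9 and 49.5 for SLC30A9, between 6.18 and 10.8 for SLC30A6, between 19.9 and 26.2 for SLC39A8, between 17.1 and 22.9 for SLC39A9 and between 9.97 and 16.9 for SLC39A14, the last lowest in RES-B. MTF1, the zinc-sensing regulator, stood at 14.8, 12.2, 17.9 and 23.6 CPM in library order, with log2 ratios to LNCaP of 0.27 [0.13, 0.41] for RES-A and 0.67 [0.54, 0.80] for RES-B.

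The chromosomal surroundings of the members were read from the 50 nearest expressed protein-coding genes, 25 on each side, leaving out the metallothioneins. In the comparisons of the resistant lines with LNCaP these spanned 20.2 Mb around the cluster and 4.21 to 32.8 Mb around the transporters. A difference confined to 1 locus would therefore not show in them. Around the metallothionein cluster the neighbours' median log2 ratio to LNCaP was 0.05 in RES-A and 0.08 in RES-B, beside 0.02 and 0.12 over all coding genes. The median of these neighbours thus did not share the metallothionein differences. Around SLC30A4, in contrast, the neighbours' median was -0.46 in RES-A and -0.27 in RES-B, beside -0.56 and -0.85 for the gene. Around SLC39A6 it was -0.40 in RES-A but 0.12 in RES-B, and around SLC30A1 it was 0.03 in RES-A and 0.39 in RES-B. SLC30A4 in both resistant lines, SLC39A6 in RES-A and SLC30A1 in RES-B thus differed from LNCaP in the direction of their neighbours. Around SLC39A1 the neighbours' median was -0.06 in RES-A, the same sign as the gene at -0.59 but much smaller. In RES-B it was 0.37, beside 0.00 for the gene. In RES-B against RES-A the neighbours' median was 0.37 around SLC39A1 (gene 0.59), 0.52 around SLC39A6 (gene 0.50) and 0.37 around SLC30A1 (gene 0.60). Around SLC30A4 it was 0.22, opposite in sign to the gene at -0.28. Around the metallothionein cluster it was 0.10, as over all coding genes. Whether gene dosage had a part was not tested.

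At the level of single cells, each cell was thinned to 5000 UMIs so that libraries of unequal depth could be compared. MT2A was detected in 82.8% [80.9, 84.5], 82.2% [81.0, 83.3], 63.3% [61.9, 64.7] and 90.4% [89.4, 91.3] of thinned cells in library order. Unthinned, the shares were 99.0%, 94.8%, 84.5% and 98.1%. MT1X was found in 61.7%, 52.0%, 28.0% and 65.6% of thinned cells in the same order. MT1F was found in 5.89%, 8.13%, 3.26% and 23.9%, and MT1G in 13.1% [11.5, 14.7], 16.2% [15.2, 17.4], 1.95% and 0.148% [0.0542, 0.321]. The order of the shares followed that of the levels for these 4 genes. No cell type in these libraries lacks the genes, so the share that free RNA alone would give could not be measured.

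Among the transporters, SLC30A1 was found in 2.69%, 2.99%, 6.76% and 9.28% of thinned cells in library order (14.3%, 7.69%, 15.8% and 22.4% unthinned). SLC30A4 was found in 28.0%, 33.7%, 21.2% and 16.5% (66.7%, 57.7%, 42.6% and 33.1% unthinned). SLC39A1 was found in 10.8% and SLC39A6 in 20.3% of thinned RES-A cells, the lowest share of the 4 libraries for both, and SLC39A6 reached 37.6% in LNCaP. The unthinned order of SLC30A1 differed from the thinned one in that LNCaP, the deepest library, stood above LNCaP-ENZ48.

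Metallothionein transcripts were unevenly shared among the cells of each library. The summed metallothionein count of a thinned cell had a median of 5, 4, 1 and 6 UMIs in library order, and a 95th percentile of 31, 27, 6 and 51 UMIs. No metallothionein UMI was found in 8.36%, 9.64%, 26.1% and 4.85% of thinned cells. The lower sum of RES-A was therefore seen both in its median cell and in its high cells. One unthinned LNCaP cell held 1116 metallothionein UMIs, of the 87139 in that library.

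By overdispersion, MT1G was the most unevenly distributed member in the parental libraries among those frequent enough to be measured. Its overdispersion, the variance beyond counting noise divided by the squared mean, was 7.79 in LNCaP, rank 16 of 7397 genes, and 6.58 in LNCaP-ENZ48, rank 49 of 7148. The 10% of cells with most MT1G held 88.1% of its UMIs in LNCaP and 82.6% in LNCaP-ENZ48. That share is 100% for MT1F and SLC30A1 in both libraries, because fewer than 10% of thinned cells held a UMI of either. Overdispersion was 2.21, 2.79, 1.27 and 2.07 for MT2A and 2.18, 3.86, 1.34 and 3.23 for MT1X in library order. By this measure both were most even in RES-A. By the share of UMIs in the top 10% of cells MT2A was also most even there (40.8%), but MT1X was not, at 50.8% in RES-A and 47.7% in LNCaP. The transporters, where frequent enough to be measured, lay between -0.17 and 0.89, with SLC30A4 the highest of them in each library.

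**Figure D3:**
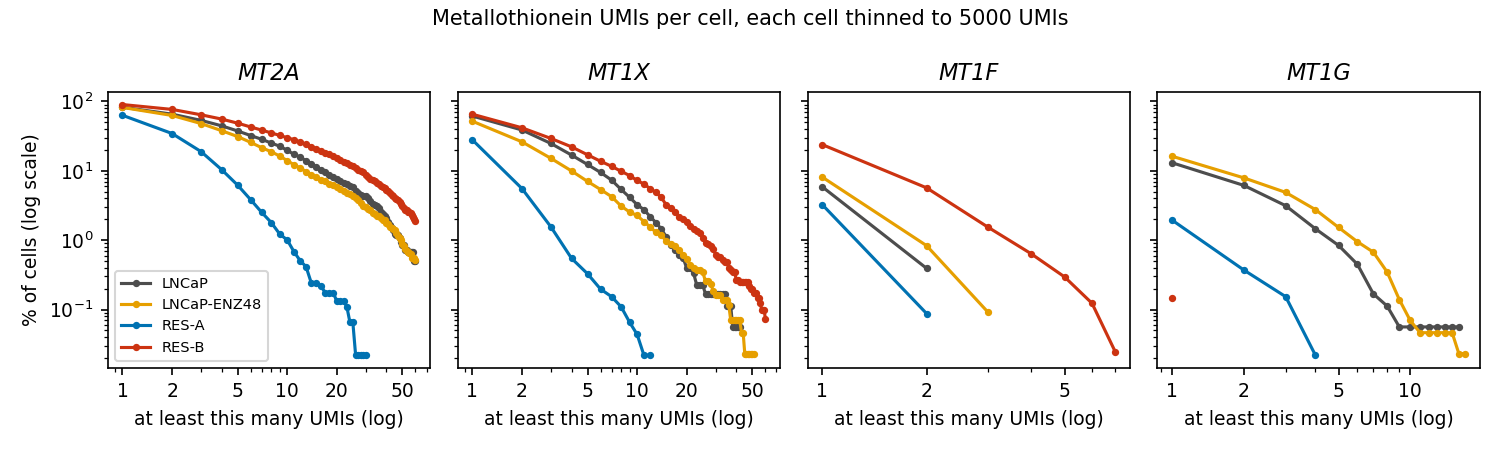
Percent of cells (log axis) that held at least a given number of UMIs (log axis) of each metallothionein after thinning every cell to 5000 UMIs; lines are libraries and end at 60 UMIs or at the highest cell. RES-A (blue) lies below the other lines for MT2A and MT1X over the whole range, and RES-B has only 1 point for MT1G, 0.148% of cells at 1 UMI.

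MT2A and MT1X made up most of the metallothionein pool in every library, whereas the share of MT1G differed widely. MT2A supplied 73.1%, 73.6%, 78.2% and 76.6% of metallothionein UMIs in library order, and MT1X supplied 23.1%, 19.8%, 18.9% and 21.0%. MT1F supplied 0.740%, 1.27%, 1.65% and 2.44%, a share that was highest in RES-B. MT1G supplied 3.08% [2.97, 3.20], 5.37% [5.22, 5.52], 1.16% [1.02, 1.31] and 0.0121% [0.00689, 0.0196]. A share within a library does not depend on the scaling between libraries, so the lower share of MT1G in both resistant lines is the same under every scaling.

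Within libraries, MT2A and MT1X were the most correlated pair of members from cell to cell. Over thinned cells their Spearman correlation was 0.39 (1782 cells), 0.31 (4315 cells), 0.08 (4569 cells) and 0.58 (4061 cells) in library order. These points share a library, a depth and part of their sequence. RES-A also had the lowest counts of both genes. When MT2A and MT1X were thinned to their RES-A means in every library, the correlation was 0.24 in LNCaP, 0.23 in LNCaP-ENZ48 and 0.34 in RES-B. RES-A thus had the lowest correlation also at matched mean counts, although the spread of counts over cells was not matched. MT1F went with MT2A in RES-B (0.24) but hardly in LNCaP (0.06), LNCaP-ENZ48 (0.08) or RES-A (0.02). MT1G went with MT1F at 0.14 in both parental libraries and with MT2A at 0.08 in LNCaP and 0.12 in LNCaP-ENZ48, weak values in sparse counts.

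Among pairs of transporters, the 24 correlations lay between -0.03 and 0.05. Between metallothioneins and transporters, the 64 correlations lay between -0.18 and 0.07. The lowest, in LNCaP, belonged to MT2A and SLC30A4, which stood at -0.18, -0.07, -0.11 and -0.13 in library order. In LNCaP-ENZ48 the pair of MT1G and SLC39A6 was lower, at -0.08. The MT2A and SLC30A4 pair was negative in all 4 libraries, as were MT1X with SLC30A4, MT2A with SLC39A6 and MT1F with SLC39A6. However, MT1X with SLC30A4 was only -0.001 in LNCaP-ENZ48. In RES-B, MT2A with SLC39A6 was -0.002 and MT1F with SLC39A6 -0.004, so the sign of these pairs says little. MT2A and SLC30A4 differed in opposite directions between cell cycle phases, as described next. Whether phase had a part in their correlation was not tested.

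**Figure D4:**
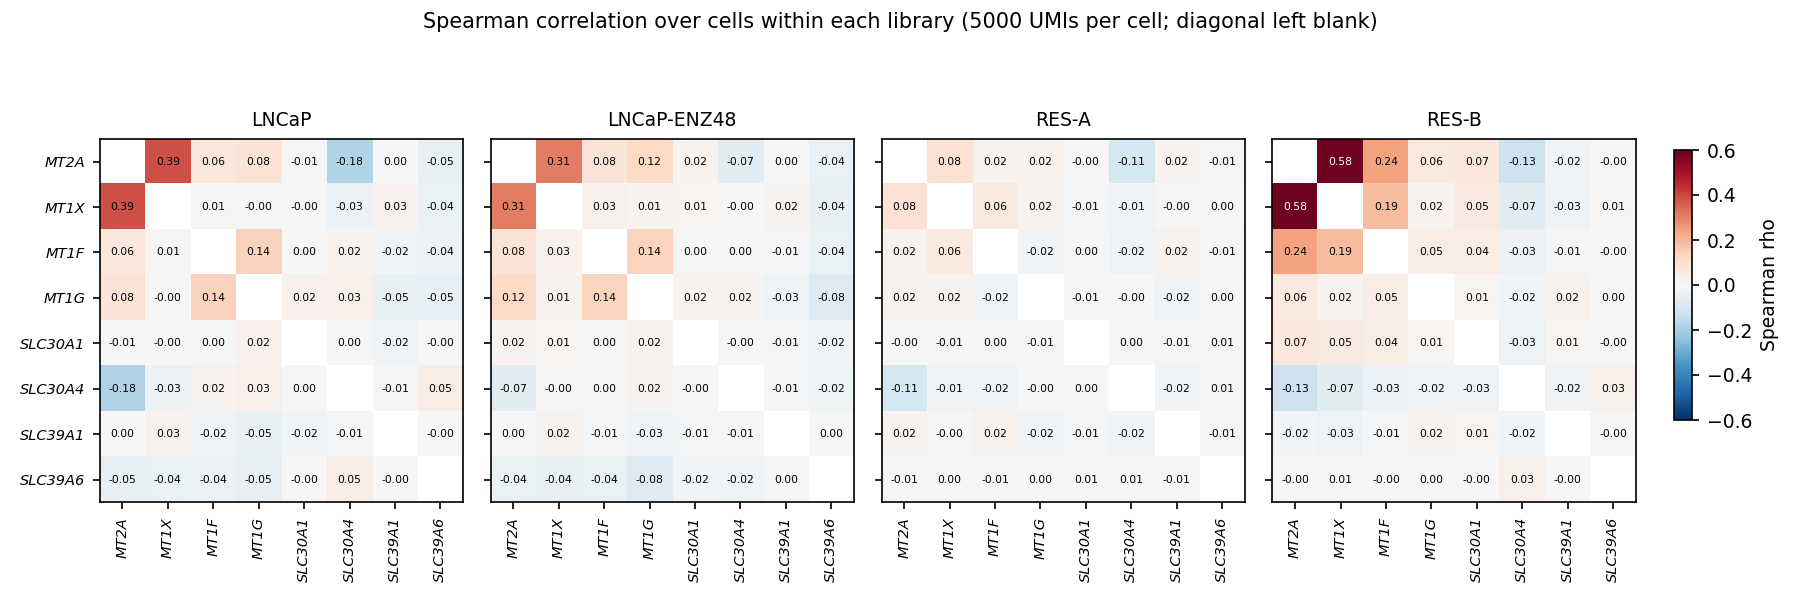
Spearman correlation over cells for each pair of members in each library, every cell thinned to 5000 UMIs; red is positive, blue negative, and the number in each square is the correlation. The MT2A and MT1X square is 0.39, 0.31, 0.08 and 0.58 from left to right, and the MT2A and SLC30A4 square is negative in each library.

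Cells were called G1, S or G2/M from lists that hold no member. MT2A was higher in G2/M than in G1 cells of every library, at 2421 against 933 CPM in LNCaP, 1370.0 against 972 in LNCaP-ENZ48, 538 against 217 in RES-A, and 3085 against 1676 for RES-B. The folds were 2.60, 1.41, 2.48 and 1.84 in library order. MT1X did not share this pattern, with G2/M to G1 log2 ratios of -0.17 [-0.22, -0.12], -0.68 [-0.76, -0.61], -0.02 [-0.13, 0.09] and -0.06 [-0.10, -0.02]. The 2 most abundant metallothioneins thus had different levels across the cycle although they were correlated from cell to cell.

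SLC30A4 showed the opposite phase order to MT2A. It stood at 16.3 CPM in G2/M against 89.4 in G1 cells of LNCaP, 20.6 against 99.6 in LNCaP-ENZ48, 22.1 against 56.9 in RES-A and 8.42 against 49.8 in RES-B, with S cells between them in every library. G1 cells held 5.48, 4.82, 2.57 and 5.92 times as much as G2/M cells in that order. MT1G was also lower in G2/M cells of the parental libraries, at 29.2 against 65.3 CPM in LNCaP and 13.6 against 86.9 in LNCaP-ENZ48. SLC30A1, SLC39A1 and SLC39A6 differed between G2/M and G1 by at most 0.42 on the log2 scale. The share of cells called G1 was 72.7%, 82.4%, 68.3% and 73.7% in library order. Because phases were called from transcript counts, free RNA from other cells could enter the calls, and its part was not tested.

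**Figure D5:**
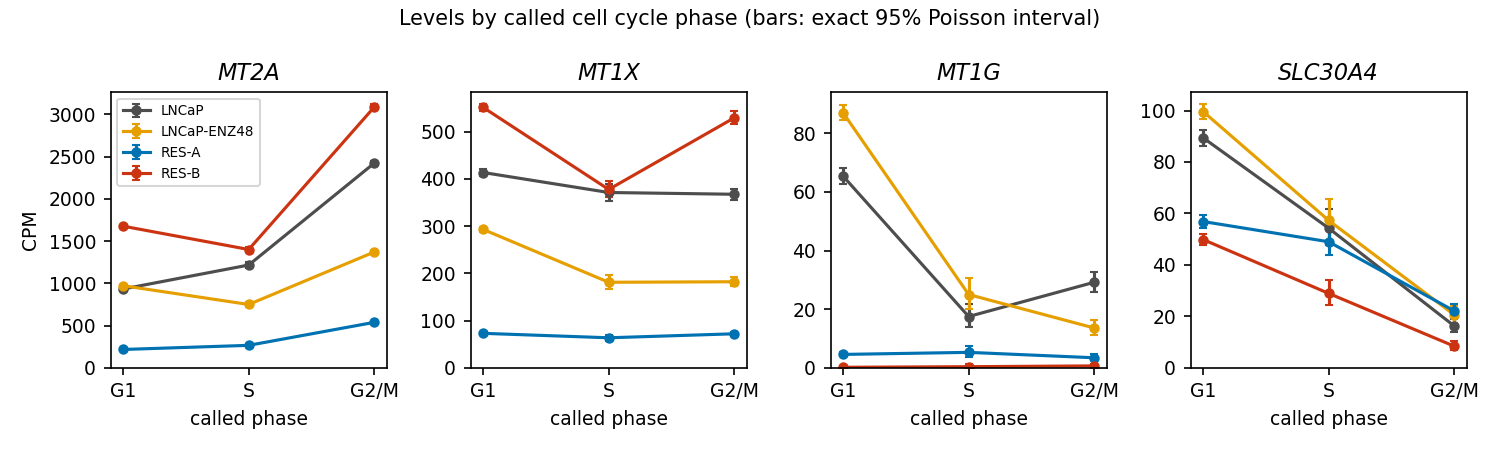
CPM of MT2A, MT1X, MT1G and SLC30A4 in cells called G1, S and G2/M, 1 line per library, with exact 95% Poisson intervals. MT2A is highest in G2/M in all 4 libraries, and SLC30A4 is lowest there, at 8.42 to 22.1 CPM.

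The cells richest in metallothioneins were described by splitting off the 10% of thinned cells with the highest sum. In LNCaP, 49.4% of these cells were called G1 against 75.2% of other cells, and in RES-A 39.6% against 71.5%. In LNCaP-ENZ48 the shares were 81.5% and 82.5%, and in RES-B 68.97% and 74.2%. The metallothionein-rich cells of LNCaP and RES-A were thus more often called S or G2/M than the others, with little such difference in LNCaP-ENZ48 and RES-B. The median mitochondrial share was 8.79% against 9.86% in LNCaP and 10.0% against 12.4% in RES-B, and the median depth was 27260 against 27031 UMIs in LNCaP and 10953 against 12434 in RES-B.

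The genes most like the metallothionein sum, by mean Spearman correlation over the 4 libraries among 6296 genes, were GAPDH (0.224), PTTG1 (0.222), LDHA (0.215), CENPF (0.205) and CDKN3 (0.199). GAPDH and LDHA encode glycolytic enzymes, and PTTG1, CENPF and CDKN3 are genes of mitosis and the cell cycle. The balance between them differed between libraries, with LDHA at 0.321 and CDKN3 at 0.170 in RES-B but 0.134 and 0.284 in RES-A.

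For MT1G, which was frequent enough in the parental libraries only, the most similar of 6835 genes were SYT4 (0.386), EEF1A1 (0.373), S100P (0.322), HSP90AB1 (0.290) and MT-CO2 (0.287). SYT4 encodes a synaptotagmin of secretory vesicles and S100P a calcium-binding protein. EEF1A1 encodes a translation elongation factor, HSP90AB1 a cytosolic chaperone and MT-CO2 a mitochondrially encoded subunit of the respiratory chain. MT1G-positive cells were called G1 in 82.4% of 233 cells in LNCaP and 93.4% of 701 cells in LNCaP-ENZ48, against 71.2% and 80.3% of MT1G-negative cells. They held more MT1F, at 32.6 against 9.55 CPM in LNCaP and 39.9 against 13.9 in LNCaP-ENZ48, and more MT2A, at 1466 against 1245 CPM and 1392 against 1001. MT1X stood at 399 against 401 CPM in LNCaP and 330.4 against 277 in LNCaP-ENZ48. MT1G-positive cells also had a higher median depth, 28467 against 26738 UMIs in LNCaP and 15152 against 13420 in LNCaP-ENZ48. For SLC30A1 no gene exceeded a mean correlation of 0.047 (GCLM) in the resistant lines, too weak in such sparse counts to single out any gene.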

How the data were processed

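Samples were 4 droplet (10x 3' v3) libraries of human LNCaP cells, 1 per condition. The deposited matrices hold raw UMI counts per gene and cell barcode, which the authors made with Cell Ranger 3.0.2 on GRCh38. Cells were kept by the gene, UMI and mitochondrial limits the study set for each library. No doublet caller was run. An alternative left out the 5% of cells with most UMIs.

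UMIs were summed over kept cells and scaled to CPM with exact 95% Poisson intervals, and log2 ratios have exact conditional binomial intervals. With 1 library per group no test was run, and cells were not treated as replicates, so p-values are not given. Genes with at least 10 CPM in 1 of 2 libraries formed the background of a comparison, and a log2 ratio of 1 or more in size was counted. Shares of cells, overdispersion and Spearman correlations were computed on cells thinned at random to 5000 UMIs (binomial intervals are Clopper-Pearson). Overdispersion was computed where the mean was at least 0.05 UMIs. Phases were called with scanpy 1.11.5 from the Seurat S and G2/M lists. Positions came from GENCODE (GRCh38), in which 33113 of 33538 gene IDs were found. Promoters came from RefSeq, GRCh38.p14. The scripts were tested on simulated data. TMM factors came from edgeR 4.0.16.

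All 10 members were described. Other metallothionein, ZnT and ZIP genes are given as counts, with values for those at 10 CPM or more in any library, and MT3 was named after its values were seen. Most similar genes were the 5 with the highest mean within-library correlation among genes found in at least 5% of thinned cells. The members and lists were chosen with earlier results of these data known. Further genes fixed as luminal markers are not reported here.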

Additional observations from a re-analysis of the deposited data

How the results depend on the processing

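The direction of the summed metallothionein ratio was kept under all 32 alternatives, with 24 values outside the counting interval. For LNCaP-ENZ48 it was -0.36 with 1 filter for all libraries, -0.24 with TMM and -0.24 with median-of-ratios scaling, -0.057 in cells called G1, -0.30 without the 5% of cells with most UMIs and -0.28 as a mean over cells. For RES-A it was -2.25 with TMM, -2.24 with median-of-ratios scaling and -2.24 in G1 cells. For RES-B it was 0.50 over all barcodes, 0.56 with 1 filter, 0.43 with TMM, 0.44 with median-of-ratios scaling, 0.58 without mitochondrial genes in the total, 0.68 in G1 cells, 0.56 without the cells with most UMIs and 0.60 as a mean over cells. For RES-B against RES-A it was 2.71, 2.78, 2.68, 2.68, 2.76, 2.93 and 2.81 for all barcodes, 1 filter, TMM, median-of-ratios, no mitochondrial genes, G1 cells and the mean over cells. Of 256 alternative member ratios 1 counted as reversed, MT2A in LNCaP-ENZ48, at 0.059 in G1 cells. TMM moved all genes by 0.10 in LNCaP-ENZ48 and by -0.11 in RES-B. With a minimum of 50 CPM, 0 members were higher in RES-A and 1 in RES-B, and with 1 CPM, 1 was lower in RES-B against RES-A (MT1G), because other genes were tested.

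The MT2A and MT1X correlation, as Pearson's r of log-normalised counts, was 0.53 in LNCaP, 0.45 in LNCaP-ENZ48 and 0.71 in RES-B. Thinning to RES-A means, chosen after seeing the data, gave 0.24 in LNCaP and 0.34 in RES-B. Causes of these shifts were not tested. Depth limits MT1G in RES-B (16 UMIs), and MT1E and MT1M. No paired analysis was possible because each condition is 1 library.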

Other observations

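Genes of oxidant defence, some of which share inducers with metallothioneins, stood both above and below LNCaP in the resistant lines. HMOX1, the heme-degrading enzyme, stood at 97.6 CPM in LNCaP and 47.6 after acute drug, against 8.88 in RES-A and 15.1 in RES-B. Its log2 ratio to LNCaP was -3.46 [-3.59, -3.33] in RES-A and -2.69 [-2.81, -2.59] for RES-B. SLC7A11, the cystine importer, was lower in both resistant lines too, at 44.7 and 69.1 CPM against 170.2, and so was TXNRD1, thioredoxin reductase, at 166 and 158 CPM against 370. NQO1, a quinone reductase, was higher in both at 512 and 506 CPM against 279.5, and GCLC, the catalytic subunit of glutathione synthesis, was at 33.9 and 15.4 against 8.50 CPM. GCLM, the modifier subunit of glutathione synthesis, was lower in RES-A at 75.2 CPM than in LNCaP at 137 and RES-B at 145. In the list of 10 oxidant and heat stress genes, 1 of 8 at 10 CPM or more was higher by 2-fold (GCLC in RES-A, the heat shock gene HSPA1B in RES-B) and 3 were lower in each resistant line (HMOX1, SLC7A11 and TXNRD1). Over all genes 4.8% were higher and 4.99% lower in RES-A, and 5.76% were higher and 3.73% lower for RES-B. DNAJB1, another heat shock gene, was at 0.99 in RES-A and reached 1.00 without mitochondrial genes in the total. The list had median log2 ratios of 0.00 in RES-A and 0.47 for RES-B.

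Copper-handling genes, whose metal is also bound by metallothioneins, showed no 2-fold difference among the 6 of 9 at 10 CPM or more in any of the 4 comparisons. Over all genes 0.212% to 5.76% were higher and 0.728% to 4.99% lower in these comparisons. A count of 0 among 6 genes is near those shares. Nearest to it was SLC31A1, the plasma membrane copper importer, at 31.9 CPM in RES-A against 61.8 in LNCaP (log2 ratio -0.95, or -1.01 under TMM).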
